A study of Mus musculus with 8 samples.

Results

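The genes described here carry fatty acids into muscle cells, bind and activate them, move them into mitochondria and oxidise them there. The list held 40 genes, chosen by gene symbol with earlier results of these data known: a Gpihbp1 site and a Ucp3 site had drawn attention because they were low in the AMPKα1 knockout (KO). The differences between AMPKα1 KO and wild type (WT) are therefore given as a description, with no test, and the AMPKα2 model carries the tests. Of the 40 genes, 37 had at least 1 polyadenylation adjacent site (APS, the genome position next to a transcript's poly(A) tail) in the deposited table, which lists 15349 gene symbols. These 37 genes held 174 of the 56483 APSs.

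RNA came from gastrocnemius muscle of male mice, with 2 AMPKα1 KO, 2 AMPKα1 WT, 2 AMPKα2 KO and 2 AMPKα2 WT animals and 1 library per mouse. Both KO lines lack part of the catalytic domain of one α subunit of AMP-activated protein kinase (AMPK) in the whole animal, so a difference in muscle need not arise in muscle fibres. The labels give C57BL/6 as the background of every mouse, whereas the study's methods name 129S2/SvPas for AMPKα1 KO. KO mice were about 6 weeks old in the AMPKα1 model and about 8 weeks old in the AMPKα2 model, per the methods. No agent was given. In whole muscle, fewer cells of a type and less RNA per cell cannot be told apart.

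Fatty acids reach muscle in part as triglyceride in lipoproteins. Lipoprotein lipase (Lpl), held on the capillary wall by Gpihbp1, releases them, Cd36 and the Slc27a transporters help them into the cell, and Fabp3 carries them in the cytosol. Acyl-CoA synthetases (Acsl) activate them, the carnitine shuttle (Cpt1, Slc25a20, Cpt2) brings them into mitochondria, and β-oxidation cuts them to acetyl-CoA, passing electrons through Etfa, Etfb and Etfdh. AMPK is known to favour this route by phosphorylating acetyl-CoA carboxylase (Acacb in muscle), whose product malonyl-CoA blocks Cpt1. The pyruvate dehydrogenase kinases Pdk2 and Pdk4 restrain glucose oxidation when fat is burned.

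The sequence around an APS bears on what was counted, because a poly(A) signal, AATAAA or ATTAAA, usually stands shortly before a true transcript end, while a run of A in the genome just after an APS is where an oligo(dT) primer can also bind. For the sites that carry the main values below, the 30 bases before the APS are given 5′ to 3′ on the gene's strand (GRCm38, from GENCODE M21 transcripts), with the signal in capitals. The Ucp3 window stops at the annotated exon end and leaves out the 2 bases just before the APS.
Gpihbp1, main site, chr15:75598216: AATAAActtgaatgtcgtttgccatctagc
Ucp3, main site, chr7:100486435: aaaaacataaaAATAAAaagttgtactgga
Cd36, main site, chr5:17782471: aagaattATTAAAtggaatcctacaaaagc
Lpl, distal site, chr8:68906934: tcAATAAAactgagaacattttatcatgat
Pdk4, site at the annotated end, chr6:5483350: ttttatAATAAAtatttttattataatagt
Pdk4, upstream 3′ UTR site, chr6:5484334: tcagcgggaggccatccatgtaggagagag
The first 5 windows hold a signal and the upstream Pdk4 window holds neither. The 2 most used Lpl sites also lacked both signals, and for them the 30 bases after the APS are shown because these are rich in A.
Lpl, after chr8:68905013: aaaaaaaaaaaaaaaaaaaagtaaccagga
Lpl, after chr8:68905383: aaaaaagaagaagaaggagaagaagaagag
The first of these runs opens with 20 A in a row, and the second holds 20 A among its 30 bases.

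Among the 119 member windows that could be read, 27.7% held AATAAA and 8.40% ATTAAA, searched on the gene's strand, and 35.3% held at least 1 of them. Over 25073 readable windows of all APSs these shares were 34.7%, 10.8% and 44.3%. An A-rich stretch after the site (7 A in a row or 8 A in 10 bases) followed 11.7% of 77 readable member sites and 24% of 15163 sites overall. Leaving out chromosome 18, where Acaa2 lies, the 41 member sites with a signal held 36.4% to 59.3% of the members' reads in a library. Sites in 3′ UTRs held 77.9% of the members' reads, sites just downstream of the annotated end 14.1%, introns 3.80% and coding exons 1.59%.

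Libraries held 2311242 to 3549156 reads, and 9.33% of all reads lay at APSs with no gene. Library composition differed between the models: the 10 most abundant genes took 18.3% to 24.1% of the gene reads in AMPKα1 libraries and 44.6% to 56.3% in AMPKα2 libraries, where Rn18s-rs5, a ribosomal RNA sequence, led. Members held 0.468% to 0.591% of AMPKα1 reads and 0.134% to 0.189% of AMPKα2 reads, and because the models also differ in age and, per the methods, strain, their levels are set side by side without a comparison. Skeletal muscle markers such as Acta1, Des and Ttn were present in every library. The reads, summed per gene, cannot check the knockout, because a transcript's 3′ end can lie outside the deleted part. Prkaa1, which encodes AMPKα1, was sparse, with 0 and 82 reads in AMPKα1 KO and 15 and 0 in AMPKα1 WT. Prkaa2 had 40 and 71 in AMPKα2 KO and 87 and 62 in AMPKα2 WT. The AMPKα1 KO pair stood apart in genes seen in a single mouse: of genes with 50 or more reads in 1 library of the pair, 11.9% had 0 in the other, against 1.5% for the AMPKα1 WT pair, 0.073% for AMPKα2 KO and 0.06% for AMPKα2 WT.

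Levels are given as CPM, reads scaled to a common library size with TMM factors over the 8 libraries. Reads come from the ends of transcripts, so CPM was not divided by transcript length, although some reads lay at internal sites, as given below, and could depend on it. By the mean over its 4 libraries Lpl stood first in each model, and its mean over all 8 was 752 CPM. In AMPKα2 KO alone Etfb (mean 796 CPM) stood above Lpl (644 CPM). Lpl was not first in either model without the sites followed by an A-rich stretch, a choice made after the values were seen. It then averaged 135 CPM in AMPKα1 libraries, below Pdk2 (305 CPM) and Eci1 (158 CPM). The AMPKα2 average of Lpl was then 306 CPM, below Etfb (666 CPM) and Pdk4 (340 CPM). The bases after the main sites of Pdk2, Eci1, Etfb and Pdk4 could not be read. The removal could therefore not reach those sites, and this order does not treat the genes alike. In AMPKα1 libraries Pdk2, Eci1, Etfa and Etfb came next, and in AMPKα2 libraries Etfb, Pdk4, Cd36 and Hadh. Etfa was at 66.1 to 179 CPM in AMPKα1 libraries and at 17.7 to 23.2 CPM in AMPKα2 libraries, while Etfb was at 83.2 to 201 CPM and 466 to 897 CPM. Ucp2 stood last in both models, at 0 to 3.53 CPM. All 37 genes had reads in 1 or more libraries of each model, and 32 of them had reads in each AMPKα1 KO library, against 36 or 37 in each of the other 6.

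**Figure D1:**
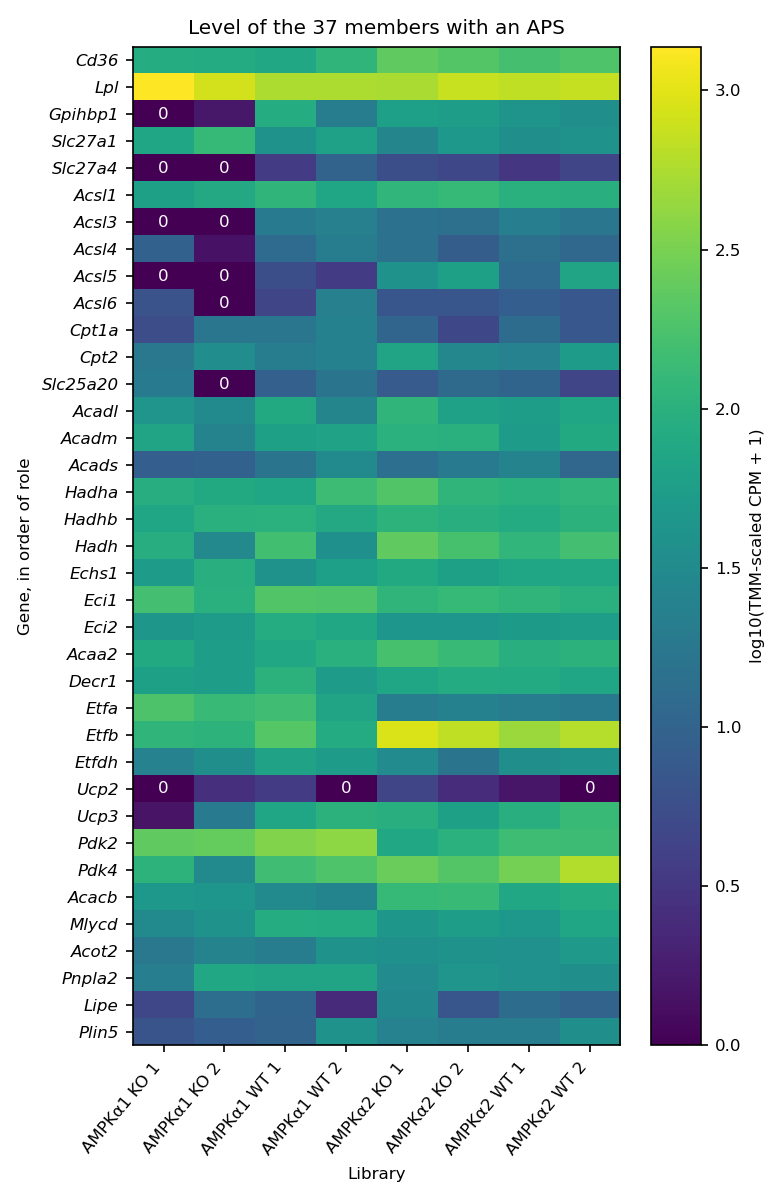
Level of the 37 genes with an APS (rows, in order of role) in each of the 8 libraries (columns), as log10(TMM-scaled CPM + 1), with 0 written where a library had no read. Lpl is the brightest row in most libraries, and Slc27a4, Acsl3 and Acsl5 have 0 reads in both AMPKα1 KO libraries.

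The spread between mice of a group was as follows. The median fold between the 2 libraries of a group, over members seen in both, was 1.44 for AMPKα1 KO and 1.54 for its controls, 1.30 for AMPKα2 KO and 1.21 for its controls. Over all such genes it was 1.79, 1.74, 1.35 and 1.29 in that order, so members did not vary more than other genes by this measure. Among members seen in both mice the widest gap was Ucp3 in AMPKα1 KO, at 38.1-fold. Slc25a20, seen in 1 AMPKα1 KO mouse, differed at least 44.2-fold against the floor of 3 reads.

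In AMPKα2 KO against AMPKα2 WT, no member differed past the threshold. Of 36 members with enough reads to test, 0 were called by edgeR's quasi-likelihood test at an adjusted p under 0.1, where 0.484% of 10536 genes were called (27 higher, 24 lower). At an unadjusted p under 0.05, 2 members were higher (Acacb and Acaa2) and 2 lower (Pdk4 and Pdk2), or 11.1% of those tested, beside 8.4% of all genes (504 higher, 381 lower). DESeq2 also called 0 members. The members' median log2 fold change was 0.06 against 0.00 over all genes tested, with 20 members above 0 and 16 below. By CPM alone, both KO mice stood above both WT mice for 11 of the 36 members (30.6%; 19.3% of all genes) and below them for 6 (16.7%; 20.3% of all genes). Scaling to library totals, which moved the median of all genes to -0.19, left 15 members above 0 and 21 below.

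In AMPKα1 KO against AMPKα1 WT, given as a description, 30 of 37 members had a negative fitted log2 fold change and 7 a positive one. The median was -0.54, also with the 3 genes at 0 in KO set to their bound, against -0.03 over all genes. Both KO mice stood below both WT mice for 15 members and above for 3, beside 18.2% and 14.2% of all 13924 genes. Among all genes edgeR called 0 (0%) and DESeq2 115, with 589 at an unadjusted p under 0.05 by edgeR, and nothing is read from the members' count. With library totals the members' median was -0.25 and that of all genes 0.22.

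**Figure D2:**
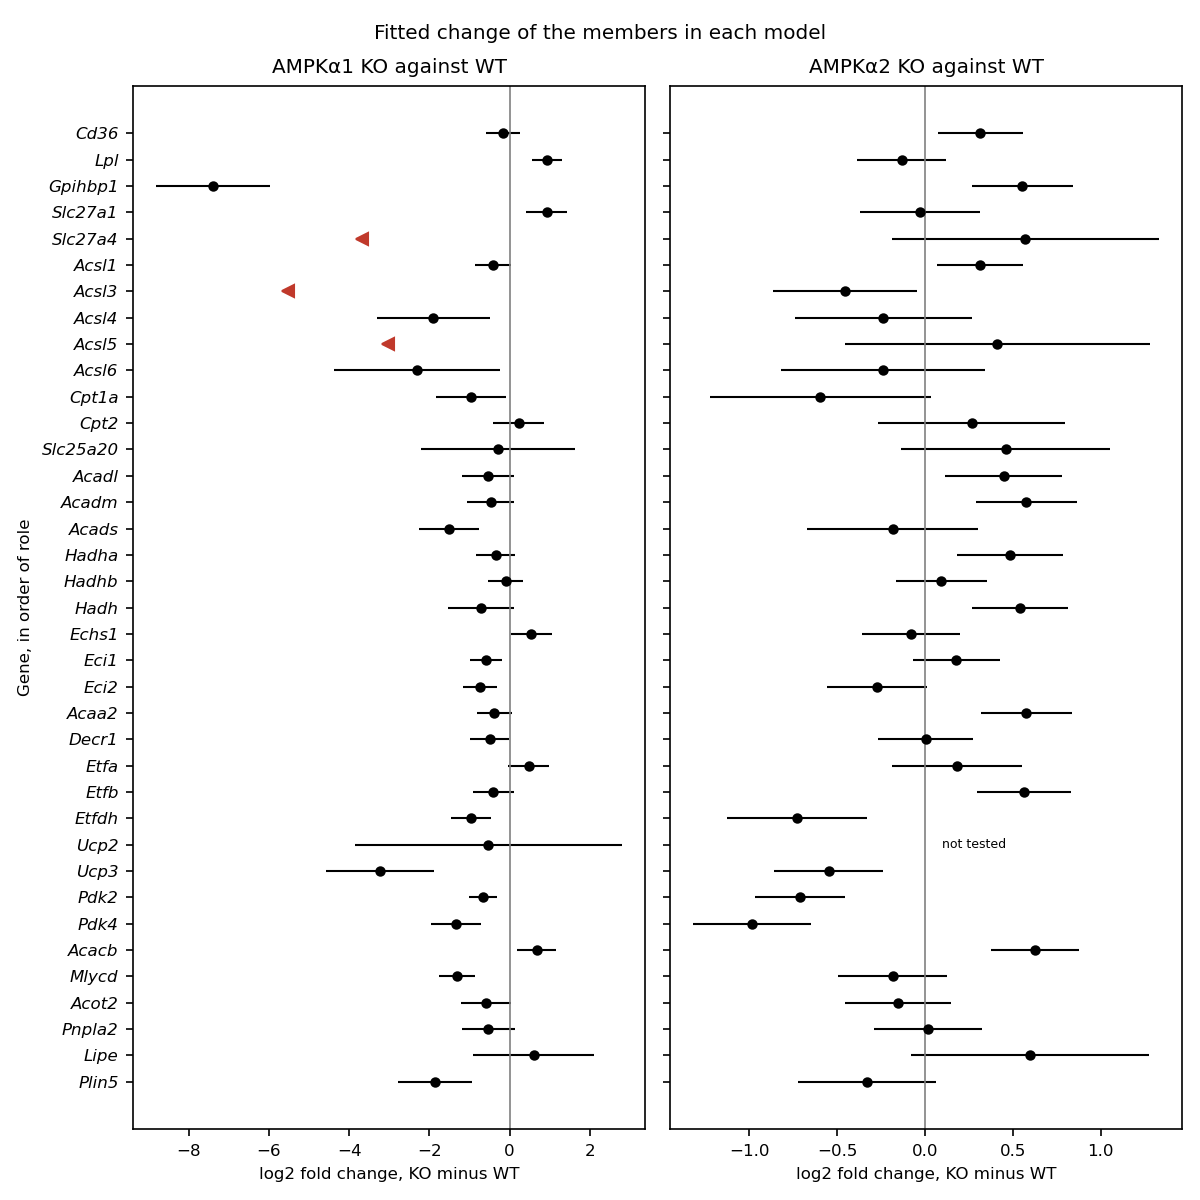
Fitted log2 fold change (KO minus WT, x axis) of each member in the AMPKα1 model (left) and the AMPKα2 model (right), with bars of 1 standard error and with different x ranges in the panels. Triangles mark genes with 0 reads in both AMPKα1 KO libraries, placed at the bound set by 3 reads per library, and in the AMPKα2 model every point lies between -0.98 and 0.63.

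Among the uptake genes, Gpihbp1, which anchors lipoprotein lipase in capillaries, had 0 and 4 reads in the AMPKα1 KO mice, against 300 and 128 in their WT controls. AMPKα2 KO mice gave 49 and 75 Gpihbp1 reads, AMPKα2 WT mice 76 and 40. Scaled to CPM, both AMPKα2 KO mice (57.7 and 56.2) were above both WT mice (41.1 and 35.3). This order depended on the TMM factor of AMPKα2 KO 1 (0.403, against 0.538 to 0.624 in the other AMPKα2 libraries). Scaled to library totals the AMPKα2 groups overlapped. The AMPKα1 groups were far apart, though the 2 WT mice themselves differed (86.6 and 19.7 CPM). The fitted log2 fold change was -7.39 (SE 1.42) in the AMPKα1 model, or -5.98 without AMPKα1 WT 1, and 0.55 (SE 0.29, edgeR adjusted p = 0.636) in the AMPKα2 model. The main Gpihbp1 site, in the 3′ UTR, held 96.1% of its reads, with 0 and 4 in AMPKα1 KO against 300 and 116 in the controls, while AMPKα2 KO gave 44 and 72 against 73 and 37. Its log2 fold change was -7.52 (SE 1.30) in the AMPKα1 model and 0.40 (SE 0.37, edgeR adjusted p = 0.807) in the AMPKα2 model. The other Gpihbp1 site, chr15:75599486 and 5 bases past the annotated end, had 12 reads in AMPKα1 WT 2, 0 in the other AMPKα1 libraries and 3 to 5 in each AMPKα2 library, too few to test.

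Gpihbp1 is made by capillary endothelial cells, so markers of these cells were read beside it. Of the 10 listed, 9 had reads, with a summed level of 402 and 278 CPM in AMPKα1 KO and 329 and 300 CPM in AMPKα1 WT. These groups overlapped. Esam was at 180 and 78.0 CPM in KO and 53.1 and 52.6 CPM in WT. Without Esam, a choice made after the values were seen, the other 8 summed to 222.6 and 199.5 CPM in KO and 276 and 248 CPM in WT, both KO below both WT. Over all 9, 6 fitted changes were negative with a median of -0.11, and with library totals 4 were negative with a median of 0.09. Both KO mice were below both WT mice for Kdr (1.72 and 10.3 against 26.9 and 21.2 CPM), Emcn (2.2 and 0.29 against 4.04 and 4.0 CPM) and Egfl7 (25.1 and 44.2 against 58.0 and 56.1 CPM), and above them for Esam. The remaining 5 overlapped, Pecam1 at 16.9 and 7.34 against 11.6 and 12.0 CPM and Cdh5 at 69.6 and 39.0 against 38.4 and 74.4 CPM among them. The part of these cells in the Gpihbp1 values was not tested.

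**Figure D3:**
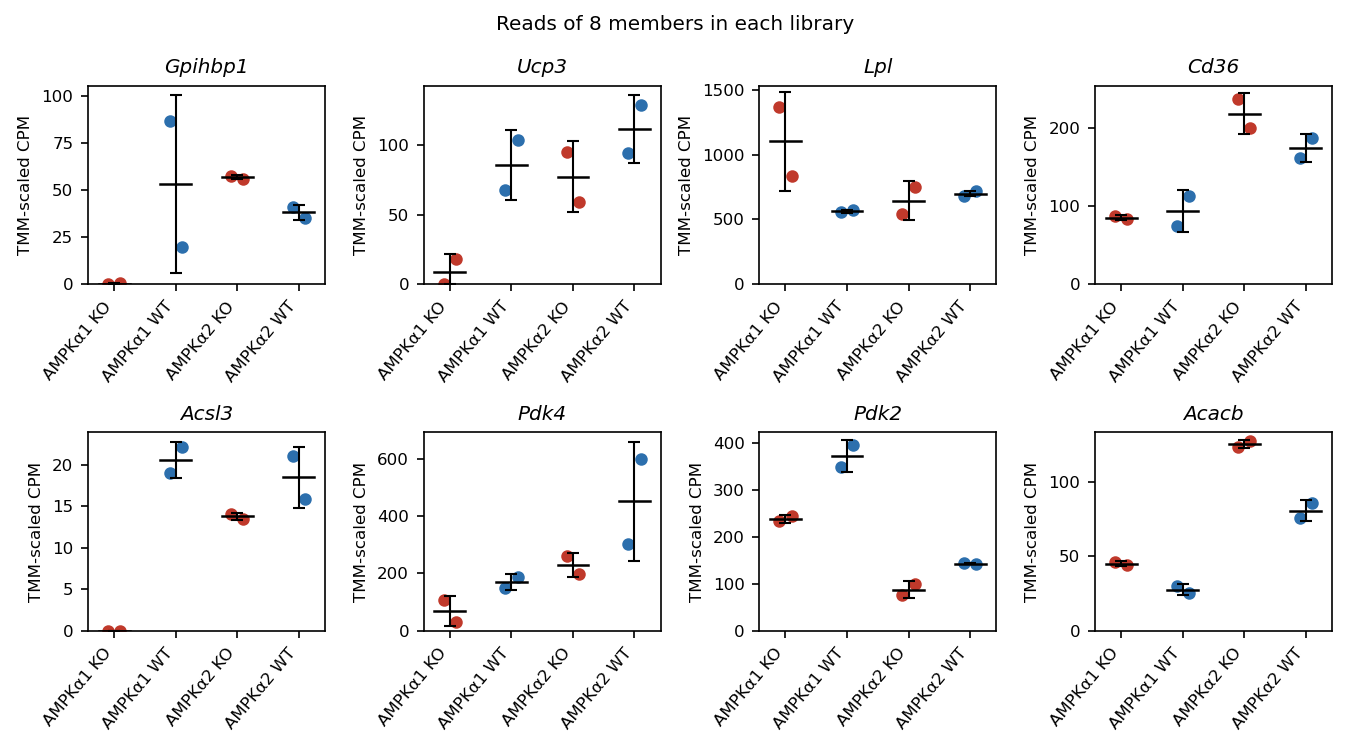
TMM-scaled CPM (y axis, linear from 0) of 8 members in the 4 groups, with 1 point per library, the group mean as a horizontal line and the SD (n = 2) as a bar. Gpihbp1 and Acsl3 are at or near 0 in AMPKα1 KO, and Pdk4 and Pdk2 are lower in both KO mice than in both WT mice of each model.

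Lpl itself gave 8730 and 5680 reads in the AMPKα1 KO mice and 1922 and 3701 in their controls. Its AMPKα2 reads were 458 and 999 for KO, 1264 and 810 for WT. In CPM the AMPKα1 KO mice were above both WT mice (1368 and 833 against 555 and 569), and the AMPKα2 groups overlapped. The log2 fold change was 0.93 (SE 0.37) in the AMPKα1 model, or 0.56 without AMPKα1 KO 1, and -0.13 (SE 0.26, edgeR adjusted p = 0.931) in the AMPKα2 model. This gene total came from 21 APSs, the most of any member, and the site shown above that runs into 20 A had 6267 and 3342 reads in AMPKα1 KO against 516 and 1463 in AMPKα1 WT. The next site, also followed by an A-rich stretch, had 1414 and 1737 against 798 and 1480. The distal site with AATAAA had 818 and 313 against 427 and 404. Sites followed by an A-rich stretch thus held 88.0% and 89.9% of Lpl reads in AMPKα1 KO and 68.4% and 79.7% in its controls. For AMPKα2 the shares were 19.2% and 62.4% in KO, 59.3% and 67.9% in WT. These shares are lower bounds, because the bases after several other Lpl sites could not be read. Without them, a choice made after these values were seen, the log2 fold change of Lpl was -0.27 (SE 0.48) in the AMPKα1 model and 0.49 (SE 0.28, edgeR adjusted p = 0.669) in the AMPKα2 model, so the sign turned in both. Whether these reads mark transcript ends was not tested.

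**Figure D4:**
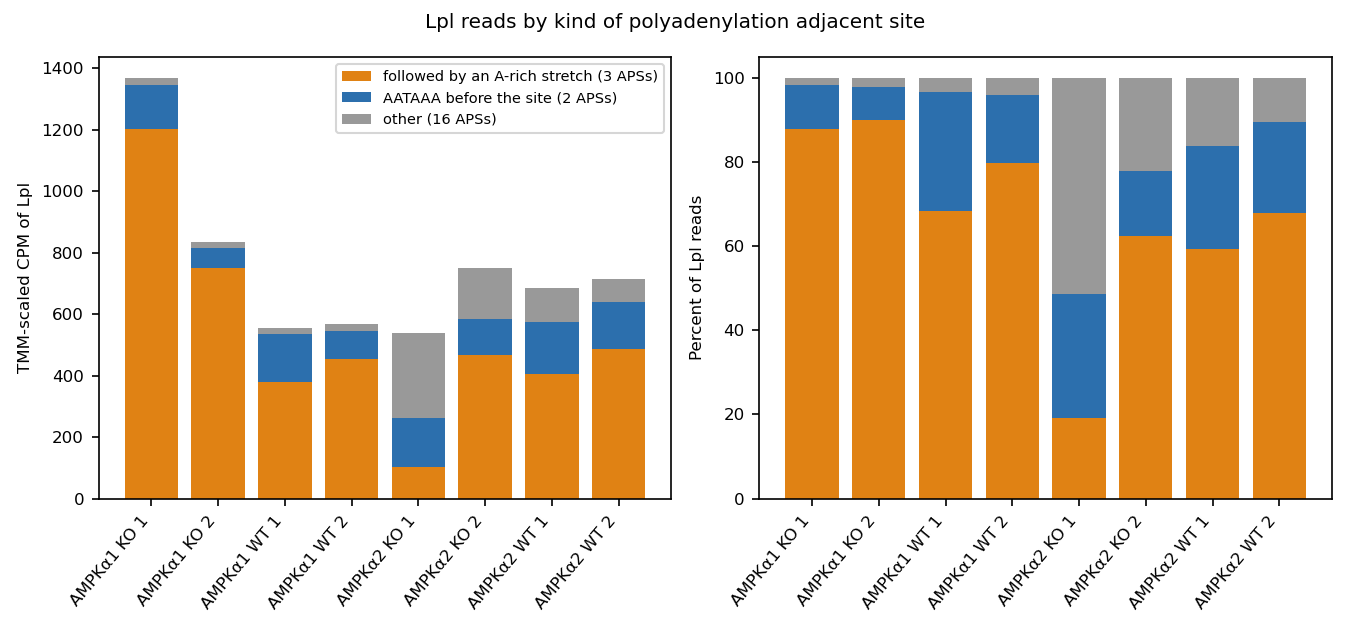
Lpl reads in each library split by kind of APS, as TMM-scaled CPM (left) and as percent of Lpl reads (right). The kinds are 3 sites followed by an A-rich stretch, 2 sites with AATAAA and 16 others. Sites whose following bases could not be read were kept out of the first kind. The excess of AMPKα1 KO over AMPKα1 WT lies in the first kind, and AMPKα2 KO 1 has the smallest share of it (19.2%).

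AMPKα2 KO 1 stood apart in where its Lpl reads ended: 31.9% lay in introns or coding exons, against 4.57% to 9.26% in the other AMPKα2 libraries and 1.04% to 3.95% in AMPKα1 libraries. Over all members, such internal sites held 17.4% of the reads in AMPKα2 KO 1, 9.15% to 11.2% in the other AMPKα2 libraries and 2.86% to 4.73% in AMPKα1 libraries. Without Lpl and Pdk4 the shares were 15.7% in AMPKα2 KO 1 and 10.7% to 13.0% in the other AMPKα2 libraries. Among the 21 Lpl sites 10, none of them in the 3′ UTR, had reads only in AMPKα2 libraries. This was not particular to Lpl: so did 10 of 16 Pdk4 sites and 7 of 10 Hadha sites. Of all member sites 28.2% had no AMPKα1 read, beside 12.6% of all APSs. Without AMPKα2 KO 1 the log2 fold change of Lpl was 0.069.

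Cd36, the fatty acid translocase, gave 558 and 566 reads in the AMPKα1 KO mice and 257 and 733 in their controls. AMPKα2 KO mice gave 201 and 266 reads, AMPKα2 WT mice 299 and 211. In CPM the AMPKα1 groups overlapped, and both AMPKα2 KO mice (237 and 199) stood above both WT mice (162 and 186). Scaled to library totals the AMPKα2 groups overlapped for Cd36 too. The log2 fold change was -0.16 (SE 0.43) in the AMPKα1 model, or 0.20 without AMPKα1 WT 2, and 0.32 (SE 0.24, edgeR adjusted p = 0.759) in the AMPKα2 model. Its main site, which has ATTAAA in place of AATAAA, held 32.0% to 53.0% of its reads in a library.

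The plasma membrane transporter Slc27a1 gave 453 and 846 reads in AMPKα1 KO against 137 and 401 in its controls, and 22 and 62 in AMPKα2 KO against 66 and 44. Slc27a4 was without reads in both AMPKα1 KO libraries (0 and 0), against 9 and 58 in the controls, at least 12.9-fold lower against a floor of 3 reads per library. Each AMPKα2 library held 4 or 5 Slc27a4 reads. Fabp3 had no APS under its symbol, and none lay within 3000 bases of the gene. The processed copy Fabp3-ps1, named after its values were seen because mapping may not separate such a copy from its parent gene, gave 54 and 53 reads in AMPKα1 KO against 337 and 69, and 82 and 68 in AMPKα2 KO against 66 and 44.

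Of the 5 acyl-CoA synthetases, Acsl1 is the main form in muscle. Its reads were 385 and 523 in AMPKα1 KO against 385 and 445 in the controls, and 97 and 167 in AMPKα2 KO against 177 and 108. Scaled to CPM, the AMPKα1 groups overlapped for Acsl1, and both AMPKα2 KO mice (114 and 125) were above both WT mice (95.7 and 95.4). With library totals the AMPKα2 groups overlapped for Acsl1. Acsl3 was at 0 in both AMPKα1 KO mice and at 66 and 144 reads in their controls, at least 46.2-fold lower. Its main site lies in the 3′ UTR (chr1:78706981). AMPKα2 KO mice gave 12 and 18 Acsl3 reads, AMPKα2 WT mice 39 and 18. Acsl5 was likewise at 0 in both AMPKα1 KO mice, with 16 and 17 reads in the controls (at least 8.13-fold lower), and 33 and 80 in AMPKα2 KO against 21 and 75. Its AMPKα1 reads lay at a 3′ UTR site with 3 and 1 reads in AMPKα2 KO against 10 and 9, whereas 89.0% of its AMPKα2 reads lay at a 5′ UTR site without AMPKα1 reads (30 and 79 against 11 and 66). Acsl4, at 53 and 3 reads in AMPKα1 KO against 40 and 130, had a log2 fold change of -1.90 (SE 1.41), which was -5.11 without AMPKα1 KO 1 and -0.99 without AMPKα1 KO 2. Acsl6 had 34 and 0 reads against 12 and 143, but all except 23 of these lay on the strand opposite the gene. Its one sense site had 0 reads in both AMPKα1 KO mice and in AMPKα1 WT 1, and 23 in AMPKα1 WT 2. For AMPKα2 the 5 synthetases ranged from -0.45 to 0.41 in log2 fold change, and 0 were called.

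The carnitine shuttle was sparsely covered. Cpt1a, the liver form of carnitine palmitoyltransferase, gave 29 and 108 reads in AMPKα1 KO against 56 and 151, and 5 to 22 per AMPKα2 library. Cpt2, the inner membrane form, gave 109 and 227 against 68 and 149 for AMPKα1, and 56 and 36 against 44 and 60 for AMPKα2. The carnitine carrier Slc25a20 had 124 reads in AMPKα1 KO 1 and 0 in AMPKα1 KO 2, the 1 member that dropped from 50 or more reads to 0 within a group. The muscle form Cpt1b had no APS under its symbol. In its interval, chr15:89416405-89425863, and 100 bases on each side, the table assigns 7 APSs to Gm44502, which was found after the values were seen. Together these gave 4 and 57 reads in AMPKα1 KO against 96 and 133, and 54 and 104 in AMPKα2 KO against 81 and 60. The largest of the 7, chr15:89416404 with 358 reads over the 8 libraries, lies just past the annotated Cpt1b end on the strand of Cpt1b. Whether the 7 APSs are Cpt1b ends was not tested. They entered no member count or test.

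Of the 12 β-oxidation enzymes, Acadvl had no APS, and 11 were measured at 1 to 10 APSs each. For AMPKα2, 8 were above 0 and 3 below, with a median of 0.18 and a range of -0.27 to 0.58, and 0 were called. Acaa2, a mitochondrial thiolase, gave 141 and 170 reads in AMPKα2 KO against 171 and 116. In CPM this was 166 and 127 against 92.5 and 102, with no overlap, and the log2 fold change was 0.58 (SE 0.26, edgeR adjusted p = 0.587). An Acaa2 site in a coding exon (chr18:74798409) gave 22 and 30 reads in AMPKα2 KO against 11 and 4, a log2 fold change of 2.13 (SE 0.53, edgeR adjusted p = 0.495), and edgeR on all sites with a read called it (adjusted p = 0.0648). Hadha, the α subunit of the trifunctional protein, was at 191 and 112 CPM in AMPKα2 KO and 98.4 and 116 CPM in AMPKα2 WT. Its log2 fold change of 0.49 (SE 0.30, edgeR adjusted p = 0.699) was 0.035 without AMPKα2 KO 1. Acadl, the long-chain acyl-CoA dehydrogenase, was at 112 and 61.5 CPM in KO and 56.8 and 68.9 CPM in WT. Its log2 fold change of 0.45 (SE 0.33, edgeR adjusted p = 0.747) was -0.054 without AMPKα2 KO 1. Thus AMPKα2 KO 1 alone stood above the other mice for both enzymes.

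In the AMPKα1 model 10 of the 11 enzymes were below 0 and 1, Echs1, above, with a median of -0.50 and a range of -1.51 to 0.54. Both KO mice were below both WT mice for Acads, Eci1 and Eci2. Hadha gave 561 and 535 reads against 235 and 909, and its log2 fold change of -0.35 (SE 0.48) was 0.30 without AMPKα1 WT 2. Acadl gave 273 and 211 against 274 and 168, and its log2 fold change of -0.54 (SE 0.64) was 0.48 without AMPKα1 WT 1. The groups overlapped in CPM for both. One Acadl site in the 3′ UTR (chr1:66831278), described after its values were seen, was at 0 in both KO mice and at 74 and 24 reads in WT, while the gene's total did not separate the groups.

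The electron transfer flavoprotein pairs Etfa with Etfb. Etfb gave 715 and 728 reads in AMPKα1 KO against 695 and 541, and 762 and 926 in AMPKα2 KO against 862 and 686. Etfa gave 1143 and 869 against 514 and 430 for AMPKα1, and 17 and 31 against 37 and 20 for AMPKα2. Etfdh, which hands the electrons to ubiquinone, gave 152 and 244 against 216 and 336, and 27 and 20 against 65 and 45. These 3 genes had 0 calls in AMPKα2. In CPM both KO mice were below both WT mice in each model for Etfdh alone of these 3. Both AMPKα2 KO mice were above both WT mice in CPM for Etfb (897 and 694 against 466 and 606). The same order held narrowly for Etfa (20.02 and 23.23 against 20.01 and 17.66), but not with library totals. The AMPKα1 groups overlapped for both.

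Ucp3, the uncoupling protein of skeletal muscle, gave 3 and 122 reads in the AMPKα1 KO mice and 236 and 675 in their controls. AMPKα2 KO mice gave 81 and 79 reads, AMPKα2 WT mice 175 and 146. In CPM both AMPKα1 KO mice (0.47 and 17.9) were below both WT mice (68.1 and 104), and the AMPKα2 groups overlapped (95.4 and 59.2 in KO, 94.6 and 129 in WT). The log2 fold change was -3.23 (SE 1.34) in the AMPKα1 model, or -2.27 without AMPKα1 KO 1 and -7.51 without AMPKα1 KO 2, and -0.55 (SE 0.31, edgeR adjusted p = 0.67) in the AMPKα2 model.

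Ucp3 had 4 APSs. The main one, 3 bases past the annotated end, gave 3 and 61 reads in AMPKα1 KO against 165 and 460, and 70 and 56 in AMPKα2 KO against 124 and 104. Its log2 fold change was -3.74 (SE 1.02) in the AMPKα1 model and -0.51 (SE 0.42, edgeR adjusted p = 0.779) in the AMPKα2 model. The distal one, chr7:100486737 and 305 bases past the annotated end, was at 0 in both AMPKα1 KO mice and at 62 and 169 reads in their controls, at least 53.3-fold lower. AMPKα2 KO mice gave 10 and 20 distal reads and AMPKα2 WT mice 43 and 40, a log2 fold change of -1.24 (SE 0.46, edgeR adjusted p = 0.629). The distal site held 26.3% and 25% of Ucp3 reads in the AMPKα1 controls, and 12.3% and 25.3% in AMPKα2 KO against 24.6% and 27.4%. Thus both 3′ sites were low in AMPKα1 KO, while an intronic site (chr7:100484234) gave 0 and 61 reads in AMPKα1 KO against 4 and 25. That site made up 50% of the Ucp3 reads of AMPKα1 KO 2, and its log2 fold change was 0.76 (SE 2.76), turning to -6.86 without that library. The remaining intronic site (chr7:100478107) was at 0 in both KO mice and at 5 and 21 reads in WT, at least 5.63-fold lower, and both intronic sites were too sparse to test in the AMPKα2 model. Ucp2, the broadly expressed relative, had at most 12 reads in any library.

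**Figure D5:**
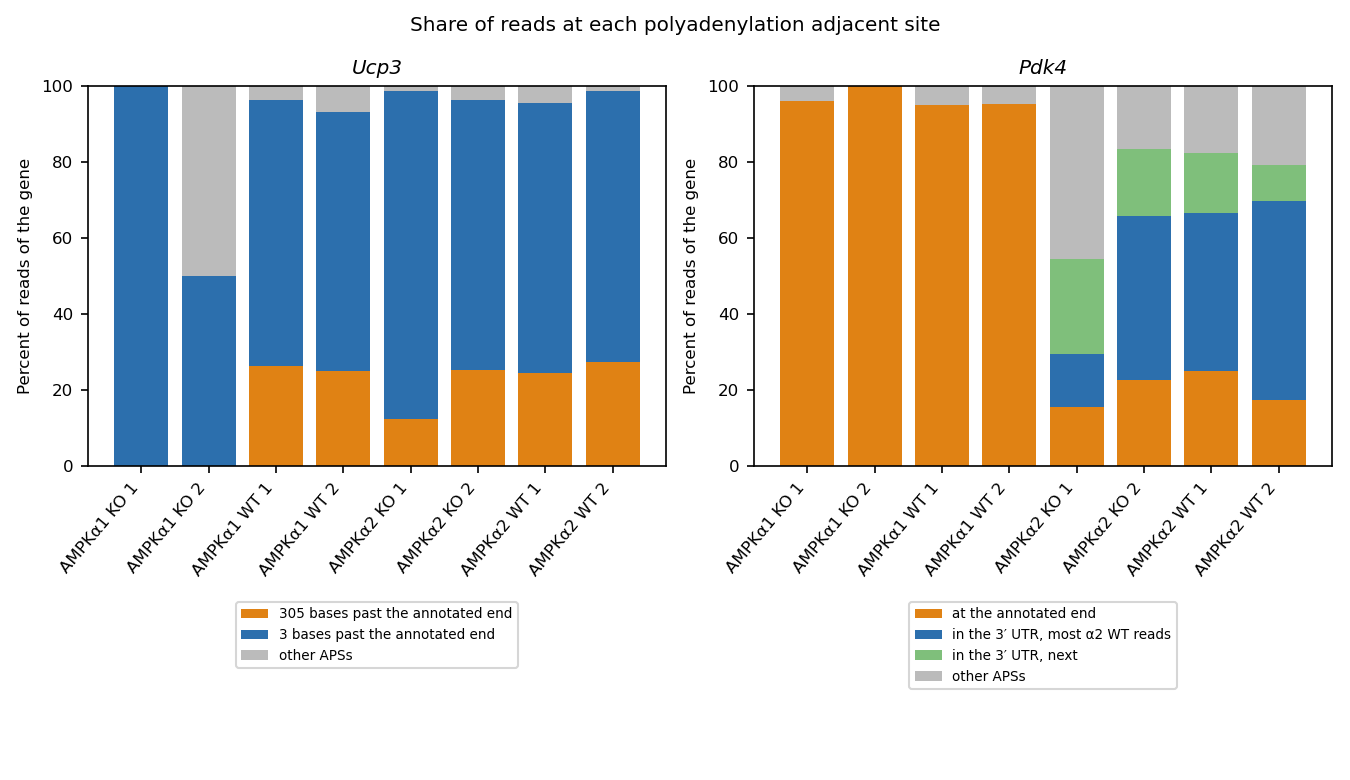
Percent of the reads of Ucp3 (left) and Pdk4 (right) at their main APSs in each library, with all remaining APSs in grey. The distal Ucp3 site is absent from both AMPKα1 KO libraries, and the Pdk4 site at the annotated end holds 95% to 100% of reads in AMPKα1 libraries and 15.5% to 25% in AMPKα2 libraries.

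Pdk4, the pyruvate dehydrogenase kinase induced by fasting, gave 682 and 210 reads in the AMPKα1 KO mice and 518 and 1224 in their controls. AMPKα2 KO mice gave 220 and 265 reads, AMPKα2 WT mice 561 and 677. In CPM both KO mice were below both WT mice in each model. The log2 fold change was -0.98 (SE 0.33, edgeR adjusted p = 0.419, unadjusted p = 0.0149) in the AMPKα2 model, and -0.42 without AMPKα2 WT 2. With edgeR on all genes with a read it was called (adjusted p = 0.0184), and with DESeq2 it was not (adjusted p = 0.443). For AMPKα1 the log2 fold change was -1.34 (SE 0.62), -2.46 without AMPKα1 KO 1 and -0.72 without AMPKα1 KO 2.

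The 2 models drew Pdk4 reads from different places. The site at the annotated end held nearly all AMPKα1 reads, whereas the upstream 3′ UTR site without a signal was at 0 in each AMPKα1 library and gave 31 and 114 reads in AMPKα2 KO against 233 and 355. The upstream site had a log2 fold change of -1.96 (SE 0.56, edgeR adjusted p = 0.587), the second smallest unadjusted p of a member site in the AMPKα2 model (0.00831). DESeq2 gave it an adjusted p of 0.0693, and edgeR on all sites with a read gave 0.0022, so its call depended on the tool and the filter. It made up 14.1% of Pdk4 reads in AMPKα2 KO 1 and 41.5% to 52.4% in the other AMPKα2 libraries.

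Pdk2, a broadly expressed form of the kinase, gave 1486 and 1663 reads in AMPKα1 KO against 1206 and 2575, and 64 and 134 in AMPKα2 KO against 266 and 161. In CPM it was 233 and 244 against 348 and 396 in the AMPKα1 model and 75.4 and 100 against 144 and 142 in the AMPKα2 model, with KO below WT and no overlap in each. Its log2 fold change in the AMPKα2 model was -0.71 (SE 0.26, edgeR adjusted p = 0.444, unadjusted p = 0.0183).

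Acacb, the AMPK target that makes malonyl-CoA, gave 296 and 300 reads in AMPKα1 KO against 105 and 164, and 105 and 170 in AMPKα2 KO against 140 and 97. In CPM both KO mice were above both WT mice in each model: 46.4 and 44.0 against 30.3 and 25.2, and 124 and 127 against 75.7 and 85.7. The sites behind these totals differed. The Acacb 3′ UTR site (chr5:114250761) had 170 and 185 reads in AMPKα1 KO against 98 and 117, or 26.6 and 27.1 against 28.3 and 17.99 CPM, with overlap. An intronic site (chr5:114155912) had 103 and 57 reads against 1 and 47, and 3 further intronic sites had AMPKα1 reads in KO alone. For AMPKα2 the 3′ UTR site was at 69.5 and 57.7 CPM in KO against 36.8 and 45.9 CPM. The gene's log2 fold change was 0.67 (SE 0.48) in the AMPKα1 model and 0.63 (SE 0.25, edgeR adjusted p = 0.534, unadjusted p = 0.0291) in the AMPKα2 model. Mlycd, which degrades malonyl-CoA, gave 195 and 268 reads in AMPKα1 KO against 296 and 549, with no overlap in CPM. AMPKα2 KO mice gave 38 and 75 Mlycd reads against 84 and 79, with overlap in CPM (44.7 and 56.2 against 45.4 and 69.8).

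The genes of stored fat were less regular. Plin5, a lipid droplet coat protein of oxidative tissue, gave 35 and 53 reads in AMPKα1 KO against 31 and 250, a log2 fold change of -1.86 (SE 0.93) that was -0.42 without AMPKα1 WT 2. Pnpla2 (adipose triglyceride lipase) had 135 and 494 reads against 232 and 436, and Lipe (hormone-sensitive lipase) 23 and 86 against 32 and 9, both with overlap. The mitochondrial thioesterase Acot2 had 108 and 167 reads against 71 and 262. All Acot2 reads lay at 1 site with neither signal before it and 18 A in a row after it. For AMPKα2 these 4 genes lay between -0.33 and 0.60 in log2 fold change, and 0 were called.

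At the level of single sites, 114 member APSs were tested in the AMPKα2 model and 0 were called, where 0.056% of 23218 APSs were (13 calls). At an unadjusted p under 0.05, 4 member sites were higher and 6 lower (8.77% of those tested, beside 7.59% of all sites), and DESeq2 called 1, the upstream Pdk4 site. A test of site use within a gene, which asks whether a site changed against the other sites of its gene, called 0 of 102 member sites (0.129% of 14707 sites overall), with 4 at an unadjusted p under 0.05. In the AMPKα1 model 39 member sites had reads in WT and 0 in both KO libraries, and 11 had reads in KO and 0 in both WT libraries, or 22.4% and 6.32% of member sites beside 17.5% and 14% of all sites. These shares also count sites without any AMPKα1 read, which were 28.2% of member sites and 12.6% of all sites. Over all sites there edgeR called 0.00454% of 44024, from which nothing is read about the members.

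Genes around this pathway that are not members were summarised from a list of 44 regulators, peroxisomal and ketone enzymes and storage genes. For AMPKα2, 38 were tested, 0 were called, and 5 were higher and 1 lower at an unadjusted p under 0.05, with a median of 0.05 and a range of -0.91 to 0.91. In the AMPKα1 model 23 of 40 were below 0, with a median of -0.31.

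Markers of other cells and of fibre types differed between some groups. In AMPKα2 all 9 slow fibre markers had positive log2 fold changes (median 1.02, 6 at an unadjusted p under 0.05, 0 called), with a summed level of 4401 and 4552 CPM in KO and 1377 and 2912 CPM in WT. Skeletal muscle markers summed to 121200 and 73680 CPM in AMPKα2 KO and 54170 and 53780 CPM in AMPKα2 WT, with 7 of 8 positive, or 6 of 8 with library totals. For AMPKα1 all 10 fast fibre markers were negative, 8 without AMPKα1 WT 1 (median -0.90, 55870 and 49300 CPM in KO, 111600 and 65870 CPM in WT). Skeletal muscle markers were negative for 8 of 8 there (median -0.49), and for 6 of 8 with library totals, with sums of 15760 and 10420 CPM in KO and 17680 and 14120 CPM in WT. Slow fibre markers were positive for 7 of 9 in AMPKα1 (median 0.60), and for 2 of 9 without AMPKα1 KO 1, with sums of 3197 and 1341 CPM in KO and 1223 and 1035 CPM in WT. Adipocyte markers, of which Plin1 and Fabp4 are fat storage genes, summed to 326 and 1251 CPM in AMPKα1 KO and 455 and 309 CPM in AMPKα1 WT, with AMPKα1 KO 2 standing apart. All 7 measured were positive there, or 3 of 6 without AMPKα1 KO 2, and Lep, the remaining marker, had no APS. For AMPKα2 the adipocyte markers summed to 583 and 352 CPM in KO and 1076 and 475 CPM in WT. Macrophage markers summed to 42.6 and 89.3 CPM in AMPKα1 KO and 92.4 and 106 CPM in AMPKα1 WT, and to 233 and 188 CPM in AMPKα2 KO and 282 and 200 CPM in AMPKα2 WT. Erythroid markers summed to 267 and 470 CPM against 626 and 301 CPM, and to 2752 and 1844 CPM against 1383 and 2114 CPM. The part of these cells and fibres in the members' values was not tested.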

How the data were processed

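WTTS-seq sequences transcripts next to their poly(A) tails and keeps the strand, here in gastrocnemius RNA of 8 mice on an Ion Torrent sequencer. The authors trimmed leading T, mapped reads with TMAP to GRCm38.p5 (build per the labels), merged read starts into APSs, assigned them to genes with Cuffcompare and deposited raw read counts per APS and library, keeping APSs with at least 16 reads in all. Such counts can include priming at genomic A runs, and splitting near-identical genes depends on mapping.

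From these deposited counts, APSs were summed per gene symbol, leaving out the 9.33% of reads with no gene at gene level. KO was compared with WT within each model, with features of 16 or more reads over the 4 libraries, TMM factors and edgeR 4.0.16's quasi-likelihood test (robust, legacy option, R 4.3.3), with Benjamini-Hochberg adjustment over all features and calls at 0.1. SE is the log2 fold change over the root of F. DESeq2 1.42.0, other scalings and filters, a replicate block and leaving out libraries were alternatives. Site use was tested with diffSpliceDGE. Precision rests on 2311242 to 3549156 reads per library and 2 mice per group and p-values measure the spread between these mice. A group at 0 was set to 3 reads per library, a floor for counting error only.

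The members and all gene lists were chosen with earlier results of these data known. Log2 fold changes are named for Gpihbp1, Ucp3, Cd36, Lpl, Acadl, Hadha, Pdk4 and Acacb (the rule also held Fabp3 and Cpt1b, which had no APS and no fit), for members under 0.05 unadjusted in AMPKα2, for the 5 largest changes in AMPKα1 among members averaging 50 reads per library, for every Gpihbp1 and Ucp3 site, and for member sites called or under 0.01 unadjusted in AMPKα2.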

Additional observations from a re-analysis of the deposited data

Results flagged for a closer look

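Acsl3 was the 1 member of 37 past the threshold of an interaction term for the difference between the models over the 8 libraries (edgeR's quasi-likelihood test, adjusted p = 0.0898 over 15349 genes, of which 9 were called). Its reads were 0 and 0 in AMPKα1 KO, 66 and 144 in AMPKα1 WT, 12 and 18 in AMPKα2 KO and 39 and 18 in AMPKα2 WT. This does not show that the models differ: the AMPKα1 values, which carry no test here, had been seen, the term pools the spread of models with coefficients of variation of 104% and 26.2%, and the models differ in age and, per the methods, strain.

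Reads in the interval of Cpt1b, or within 100 bases of it, that the table assigns to Gm44502 entered no comparison. There were 589 over the 8 libraries, with 4 and 57 in AMPKα1 KO and 96 and 133 in AMPKα1 WT, and 7 APSs.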

How the results depend on the processing

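Limits first: with 2 mice per group and gene-level coefficients of variation of 104% (AMPKα1) and 26.2% (AMPKα2), modest differences could not be detected, most of all in AMPKα1, and genes with fewer than 16 reads over a model's 4 libraries were not tested. KO and WT mice share only a replicate number: same-numbered libraries deviated with r = 0.0291 in AMPKα1 and 0.00836 in AMPKα2 across genes. With the replicate block the called APSs of AMPKα2 went from 13 to 519, its called genes from 51 to 77, its member APSs from 0 to 3 and the members' median in AMPKα1 from -0.54 to -0.63. The cause was not tested.

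In AMPKα1 the called genes went from 0 to 115 with DESeq2 and 97 with all 8 libraries fitted (members 2 and 2), and the called APSs from 2 to 218 with DESeq2, 48 with library totals, 4 with all features with a read, 0 with 10 reads in 2 libraries, 1566 with all 8 libraries and 0 without edgeR's legacy option. Member APSs went from 0 to 6, 3 and 11 with DESeq2, library totals and all 8 libraries. The members were chosen with AMPKα1 values in view, so nothing is read from any member count in AMPKα1. Leaving out 1 library gave 0 to 170 APSs (170 without AMPKα1 WT 2), 0 to 3 member APSs (3 without AMPKα1 WT 2), 0 genes and a members' median of -0.62 to -0.57. Library totals gave -0.25.

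In AMPKα2 the called genes went from 51 to 161 with library totals, 376 with all features with a read, 4 with all 8 libraries and 26 at an adjusted p under 0.05, and the called APSs from 13 to 96 with DESeq2, 42 with library totals, 557 with all features with a read, 2 with all 8 libraries and 8 at 0.05. Members called were 1 (Pdk4) and member APSs 3 with all features with a read, and 1 member APS was called by DESeq2. Leaving out 1 library gave 29 to 89 genes (29 without KO 1, 33 without WT 1, 89 without WT 2), 0 to 76 APSs (5 without KO 2, 76 without WT 1, 0 without WT 2), 0 members and a members' median of -0.01 to 0.08, against 0.06. Library totals gave -0.12. The share of called genes that were higher was 52.9%, 73.0% with DESeq2, 43.5% with library totals, 69.0% without AMPKα2 KO 1, 84.3% without AMPKα2 KO 2 and 15.2% without AMPKα2 WT 1, and of called APSs 46.2%, 84.4% and 35.7%. In AMPKα2 the log2 fold change of Acadl ranged from -0.054 to 0.84 with 1 library left out, and that of Lpl from -0.37 to 0.069, both changing sign without AMPKα2 KO 1. Lpl was at 0.49 without sites followed by an A-rich stretch. The option without legacy, the A-rich choice and the marker sum without Esam were chosen after seeing the data.

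Of the 29 members with several APSs, 28 kept their main APS in AMPKα1 libraries alone and 22 in AMPKα2 libraries alone. With library totals 28 and 31 of 37 members kept their rank by level in AMPKα1 and AMPKα2. Leaving out a library assumes that the lone mouse varies like the other group.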
